A study of Homo sapiens with 5 samples.

Results

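The zinc finger gene clusters of chromosome 19 were followed as 16 bins of 1 Mb among the 54 chr19 bins and the 2641 bins of chromosomes 1 to 22 that were used. In hg19 they form 7 runs of adjacent bins, lettered here from the tip of the short arm. Cluster A is chr19:9000001-10000000, cluster B is chr19:11000001-13000000 and cluster C is chr19:20000001-24000000, all on the short arm. Cluster D is chr19:36000001-39000000, cluster E is chr19:44000001-45000000, cluster F is chr19:52000001-54000000 and cluster G is chr19:56000001-59000000, all on the long arm. A single bin is named by its start in Mb, so bin 57 is the middle bin of cluster G. The 16 bins were chosen by their positions, at a time when contact signal of these libraries was already known. How far they stand apart from the other 38 chr19 bins is therefore described and not tested.

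KRAB zinc finger genes encode DNA-binding proteins that recruit the corepressor TRIM28 (KAP1) and with it histone H3 lysine 9 trimethylation, chiefly to transposable elements. They arose by tandem duplication and lie in dense clusters, many of them on chromosome 19. The bodies of these genes carry the same heterochromatin mark in many cell types, although many of the genes are transcribed. In Hi-C maps of human cells, bins rich in these genes are known to form a compartment of their own, set off from the gene-rich chromatin around them.

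All 5 libraries came from RMG1, an established human cell line of ovarian clear cell carcinoma, by in situ Hi-C, which ligates pieces of DNA that lie close together in the nucleus and counts the joined pairs. The control group is 1 library of cells with a control hairpin RNA (shControl), wild type for ARID1A and CAPH2. The ARID1A knockout group (KO) is 2 libraries of cells edited by CRISPR, wild type for CAPH2. The CAPH2 knockdown group (KD) is 2 libraries of cells with a hairpin RNA against CAPH2 (shCAPH2), wild type for ARID1A. ARID1A belongs to BAF, a complex that moves nucleosomes and contacts DNA through this subunit. CAPH2 (NCAPH2) belongs to condensin II, which compacts chromosomes. The control shares the hairpin method with KD and not with KO, so editing and the loss of ARID1A cannot be told apart. The labels do not say whether the 2 libraries of a group came from separate cultures or clones, so every p-value rests on how far these libraries differ, which could be technical variation alone.

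No hg19 annotation was used, so genes are not placed in the bins, and the label was not checked against gene positions in the build of the files. In the RefSeq gene table for GRCh38.p14, 570 of 20052 protein-coding genes had a symbol starting with ZNF, ZSCAN, ZKSCAN or ZFP, and 262 of these (46.0%) were on chromosome 19. Counted by order along the chromosome, 212 of them stood in 19 runs of 5 or more neighbouring protein-coding genes with such symbols. The longest run had 27 genes, from ZNF737 to ZNF681, and the next longest had 24 genes each, from ZNF627 to ZNF791 and from ZNF565 to ZNF793. Their upstream sequences are described by CG, the dinucleotide that DNA methylation acts on. The 286 promoter entries of chr19 zinc finger genes, for 228 of the 262 genes, had a median of 16 CG in the 250 bases before the start. The other 1631 chr19 entries had a median of 15 CG, and all 35116 entries had 11. At least 5 CG were present in 96.9%, 81.0% and 65.7% of these entries respectively. One promoter is shown from the middle of each of the 3 longest runs, from RefSeq on GRCh38.p14, a different build from that of the bins, with each CG (the same on both strands) in capitals.
ZNF208 (chr19:22010944-22011193, minus strand): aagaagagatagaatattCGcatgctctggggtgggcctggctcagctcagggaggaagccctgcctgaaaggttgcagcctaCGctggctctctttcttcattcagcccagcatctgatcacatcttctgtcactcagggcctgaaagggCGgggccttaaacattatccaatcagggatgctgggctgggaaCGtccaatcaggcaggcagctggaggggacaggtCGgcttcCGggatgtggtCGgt
ZNF844 (chr19:12064481-12064730, plus strand): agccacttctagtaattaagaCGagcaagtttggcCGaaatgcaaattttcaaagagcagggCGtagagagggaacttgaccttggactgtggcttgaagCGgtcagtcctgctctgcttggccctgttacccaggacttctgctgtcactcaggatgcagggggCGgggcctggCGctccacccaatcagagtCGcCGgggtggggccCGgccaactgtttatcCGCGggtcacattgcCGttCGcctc
ZNF850 (chr19:36772808-36773057, minus strand): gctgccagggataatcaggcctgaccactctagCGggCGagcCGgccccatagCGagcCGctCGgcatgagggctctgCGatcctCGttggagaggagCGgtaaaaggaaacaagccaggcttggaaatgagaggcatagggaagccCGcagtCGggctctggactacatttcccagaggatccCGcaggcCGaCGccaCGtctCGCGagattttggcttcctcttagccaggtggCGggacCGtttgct
The ZNF208 promoter holds 7 CG, that of ZNF844 holds 13 and that of ZNF850 holds 19. The contact data have 1 Mb resolution and say nothing of single promoters.

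The depth of the libraries, as whole contacts recovered from the deposited signal over chromosomes 1 to 22, was 46682454 in the control, 30679756 and 31708858 in the KO libraries, and 54248982 and 82748788 in the KD libraries. Some values on chr19 differed between libraries before any comparison. The contacts recovered from the median chr19 bin, relative to the median autosomal bin, were 0.800 in the control, 1.14 and 1.05 in KO, and 0.731 and 0.786 in KD. Within the KO group, replicate 1 had 1.98 to 2.04 times the relative yield of replicate 2 in bins 4 to 8 and 1.44 times in bin 9, against 0.949 to 1.16 times in the other 48 bins. Bins 20 to 23 had a low yield in all libraries, between 0.202 and 0.374 of the median bin.

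Some chr19 bins also held very strong contacts with single bins of other chromosomes in all 5 libraries. Bin 9 with chr3:49000001-50000000 had 199 times its expected signal in the control, 137 and 188 times in KO, and 191 and 185 times in KD. Bin 11 with chr3:10000001-11000000 had 129 times in the control, from 468 contacts, and between 109 and 140 times in the other libraries. Strong contacts were not limited to cluster bins. Bin 55, which adjoins cluster G, had 161 times in the control with chr1:81000001-82000000, and between 134 and 168 times in the other libraries. Bin 40, which is not a cluster bin, had 53.8 times in the control with chr13:46000001-47000000, 78.3 and 51.5 times in KO, and 56.8 and 52.2 times in KD. Medians and class differences that take in bins 9 and 11 are also given without them where stated.

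Contacts between different clusters were measured as log2 of observed over expected signal, where the expected signal is the mean of chr19 bin pairs at the same distance, for bins 2 to 50 Mb apart. Of 106 such bin pairs, 105 had signal in all libraries, and the pair of bins 9 and 23 was left out because KO replicate 2 had 0 contacts there. The mean over the 105 pairs was 1.01 in the control, 0.92 and 1.00 in KO, and 0.87 and 0.92 in KD. For the 537 pairs of a cluster bin with another chr19 bin it was -0.56 in the control, -0.40 and -0.56 in KO, and -0.56 and -0.58 in KD. Averaged over all these chr19 pairs, clusters therefore lay above the distance expectation with one another in all 5 libraries, and mixed pairs lay below it. The 654 pairs of other chr19 bins averaged -0.59 in the control, -0.44 and -0.67 in KO, and -0.57 and -0.56 in KD. Above expectation in all 5 libraries were 72 of the 105 pairs between clusters (68.6%), 112 of the 537 mixed pairs (20.9%) and 157 of the 654 other pairs (24.0%). The 5 pairs of bins within a cluster that were 2 Mb or more apart averaged 1.59 in the control and were above expectation in every library.

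The arms differed. Within the long arm, all 29 pairs between clusters D, E, F and G were above expectation in all 5 libraries, against 63 of 191 mixed pairs (33.0%) and 71 of 213 other pairs (33.3%). The mean of the 29 pairs was 1.71 in the control, 1.45 and 1.82 in KO, and 1.74 and 1.75 in KD. The 191 mixed pairs averaged 0.10 in the control, 0.15 and -0.004 in KO, and 0.09 and 0.07 in KD. Within this arm the mixed pairs were thus near expectation and not below it. Across the centromere, the 63 pairs of a short-arm with a long-arm cluster averaged 0.97 in the control, 0.89 and 0.92 in KO, and 0.81 and 0.88 in KD. The 259 mixed pairs across the centromere averaged -0.77 in the control and the 334 pairs of other bins -0.81. On average the clusters thus met across the centromere more often than distance predicts. Of the 63 pairs, 41 (65.1%) were above expectation in all 5 libraries, as were 41 of the 259 (15.8%) and 83 of the 334 (24.9%). In the control cluster A was below expectation with D and E, at -0.40 and -0.60, and above it with F and G, at 0.21 and 0.33. Within the short arm, the 13 pairs between clusters A, B and C were below expectation on average, at -0.36 in the control, -0.11 and -0.41 in KO, and -0.81 and -0.74 in KD. The mixed pairs of that arm were lower still, at -1.39 in the control, and its 107 pairs of other bins averaged -0.82 there. The 13 pairs were not alike. In the control the 2 pairs of A with B averaged -1.93 and the 3 pairs of A with C -0.47. The 8 pairs of B with C averaged 0.07 in the control, -0.07 and 0.38 in KO, and -0.52 and -0.39 in KD.

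**Figure D1:**
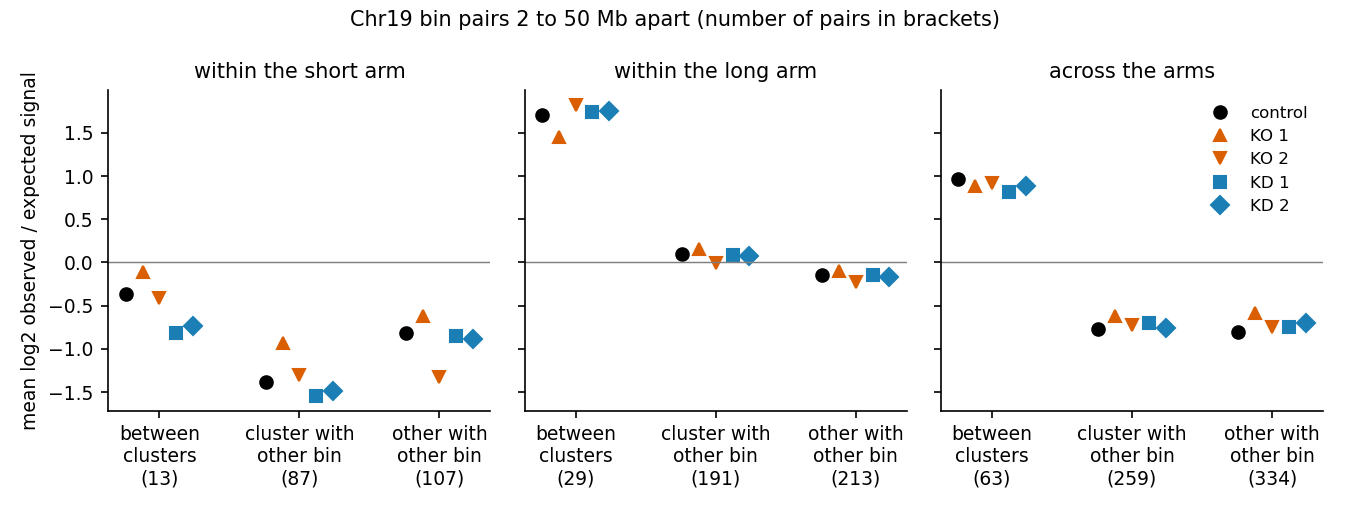
Mean log2 of observed over expected signal of chr19 bin pairs (y axis) by class of pair (x axis), in 3 panels for pairs within the short arm, within the long arm and across the arms. Each point is 1 library, and pairs between clusters average 1.45 to 1.82 within the long arm and 0.81 to 0.97 across the arms, above both other classes in every library.

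Of the 21 pairs of clusters, the highest in the control were F with G at 1.84, D with F at 1.84 and D with G at 1.81, which are 3.59, 3.57 and 3.50 times the expected signal. F with G was 1.66 and 1.88 in KO and 1.84 and 1.84 in KD. D with F was 1.65 and 1.98 in KO and 1.91 and 1.99 in KD, and D with G was 1.60 and 1.94 in KO and 1.83 and 1.80 in KD. In each of these pairs KO replicate 1 had the lowest value of the 5 libraries. The lowest were A with B at -1.93, A with E at -0.60 and A with C at -0.47. A with B was -1.22 and -2.71 in KO, and -1.83 and -1.86 in KD. Every pair of cluster A was higher in KO replicate 1 than in KO replicate 2, as was the yield of bins 4 to 9, and the part of that yield in these values was not tested. A with G shows the size of this split, with 0.33 in the control, 0.93 and -0.93 in KO, and 0.00 and -0.11 in KD.

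**Figure D2:**
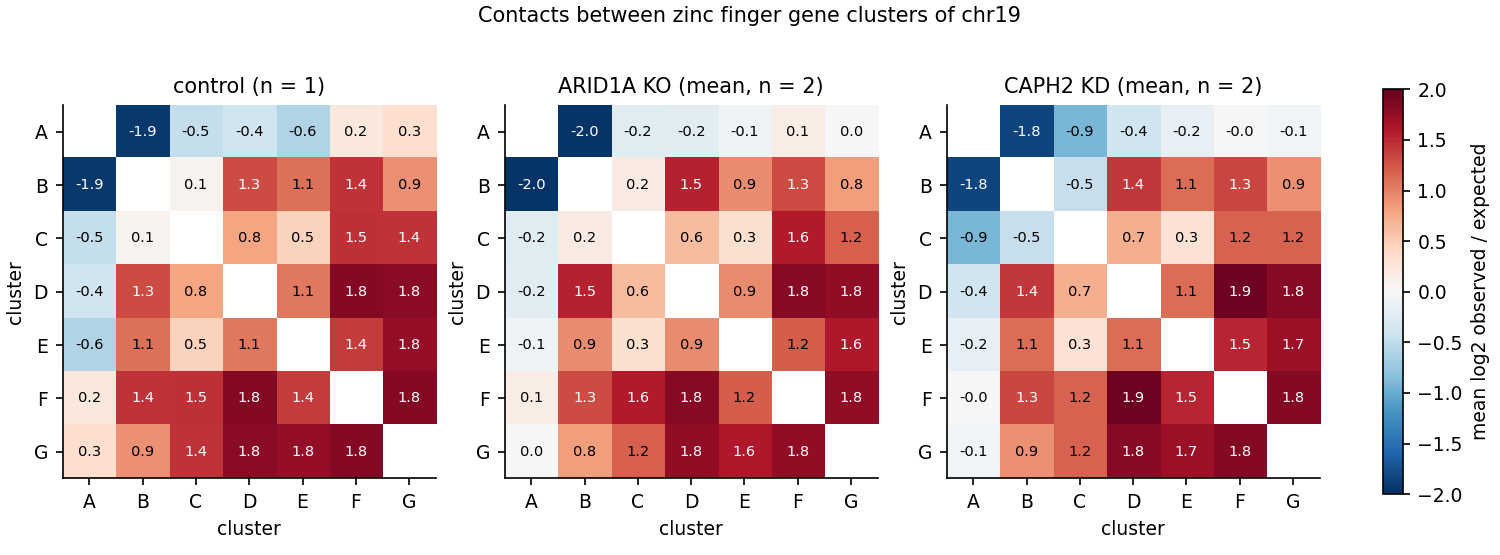
Mean log2 of observed over expected signal between the 7 clusters A to G, as a colour scale from -2 to 2 with the value in each cell, for the control library and the means of the KO and KD libraries. The pairs among D, E, F and G are at 0.94 or above in all 3 panels, while cluster A is at 0.33 or below with every other cluster.

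Each of the 16 bins had more signal with other clusters than with other chr19 bins in all 5 libraries, but by very different amounts. Bin 37 in cluster D had the largest difference, 2.70 in the control, 2.32 and 2.76 in KO, and 2.64 and 2.65 in KD. Its neighbours in cluster D had less, with 0.86 for bin 36 and 1.22 for bin 38 in the control. Bins 21 and 20 in cluster C followed bin 37 with 2.22 and 2.12 in the control, and bin 52 in cluster F had 2.10. Bin 11 in cluster B had the smallest difference, 0.35 in the control, 0.35 and 0.83 in KO, and 0.23 and 0.33 in KD, although its neighbour bin 12 had 1.70 in the control. Bin 9 had 0.70 in the control, 1.27 and 0.32 in KO, and 0.56 and 0.67 in KD. Without bins 9 and 11 the difference between the mean of pairs between clusters and the mean of mixed pairs was 1.93 in the control, against 1.57 with them. The preference was not limited to cluster bins: in the control 12 of the other 38 chr19 bins also had more signal with clusters than with other bins. Bins 28 and 29 of the long arm had the largest such differences, 1.87 and 1.62, above those of several cluster bins. Among other chr19 bins, bins 54 and 19, which adjoin clusters F and C, had the highest mean with cluster bins in the control, 0.89 and 0.81, and bins 5 and 4 the lowest, -2.28 and -2.06.

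The difference between pairs between clusters and mixed pairs was 1.57 in the control, 1.32 and 1.57 in KO, and 1.43 and 1.50 in KD. KO was lower than the control by 0.13 on average, which is the size of the SD between replicates (0.13, pooled over both groups), and 1 KO library equalled the control. Without KO replicate 1 the difference between KO and control was -0.00, and without KO replicate 2 it was -0.25. Without bins 9 and 11 it was -0.20. KD was lower than the control by 0.10. An exact permutation test cannot go below p = 0.333 with 1 library against 2 or with 2 against 2, so none was run. On recovered contacts, which are not balanced, KO was lower than the control by 0.42.

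Single chr19 bin pairs were tested with limma over 95550 bin pairs of all chromosomes, and no pair passed an adjusted p of 0.05 in any comparison (0%). At an unadjusted p under 0.05 were 5142 pairs for KO against control, 2682 for KD against control and 7864 for KO against KD. The pairs of cluster bins with the smallest p were bins 9 and 38 for KO against control (log2 difference 1.35, SE 0.44, limma adjusted p = 0.918), bins 11 and 22 for KD against control (-0.78, SE 0.29, adjusted p = 1.00), and bins 23 and 53 for KO against KD (0.86, SE 0.19, adjusted p = 0.561). The pair of bins 9 and 38 had -1.68 in the control, 0.13 and -0.80 in KO, and -0.67 and -0.55 in KD. The pair of bins 11 and 22 had -0.35 in the control, -1.08 and -1.03 in KO, and -1.35 and -0.90 in KD. In both, all KO and KD libraries lay on the same side of the control. The pair of bins 23 and 53 had 1.55 in the control, 2.17 and 2.01 in KO, and 1.28 and 1.19 in KD. These pairs were picked by their p, so the order of the libraries in them adds no evidence. A pair between clusters rested on few contacts, with a median of 49 in the control, 28 and 25 in KO, and 50 and 77 in KD. Differences of single pairs of the sizes given here were not detectable at this depth and number of libraries.

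Cluster bins kept more of their signal on their own chromosome than other chr19 bins did. The trans share, the percentage of a bin's balanced signal between bins that lies on other chromosomes, had a median of 39.1% over the 16 bins in the control, 43.3% and 44.9% in KO, and 42.5% and 42.0% in KD. Without bins 9 and 11 it was 37.9% in the control, 40.2% and 43.4% in KO, and 42.2% and 41.8% in KD. For the other 38 chr19 bins it was 56.3% in the control, 59.5% and 61.8% in KO, and 58.5% and 58.2% in KD. Bins 20, 22 and 21 of cluster C were lowest in the control, at 30.5%, 30.7% and 30.7%, followed by bin 57 at 31.8%. Bin 9 at 62.1% and bin 11 at 57.5%, which hold the strong contacts with chromosome 3, were the only cluster bins above the median of the other bins in the control. Bins 54 and 51, the lowest of the other bins in the control, adjoin cluster F. In recovered contacts pooled over the 16 bins, 53.1% were trans in the control (exact 95% interval 52.9 to 53.3), 53.4% and 56.2% in KO, and 57.4% and 56.7% in KD. Over the other 38 bins these shares were 67.5% in the control, 66.7% and 70.4% in KO, and 70.1% and 69.8% in KD.

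**Figure D3:**
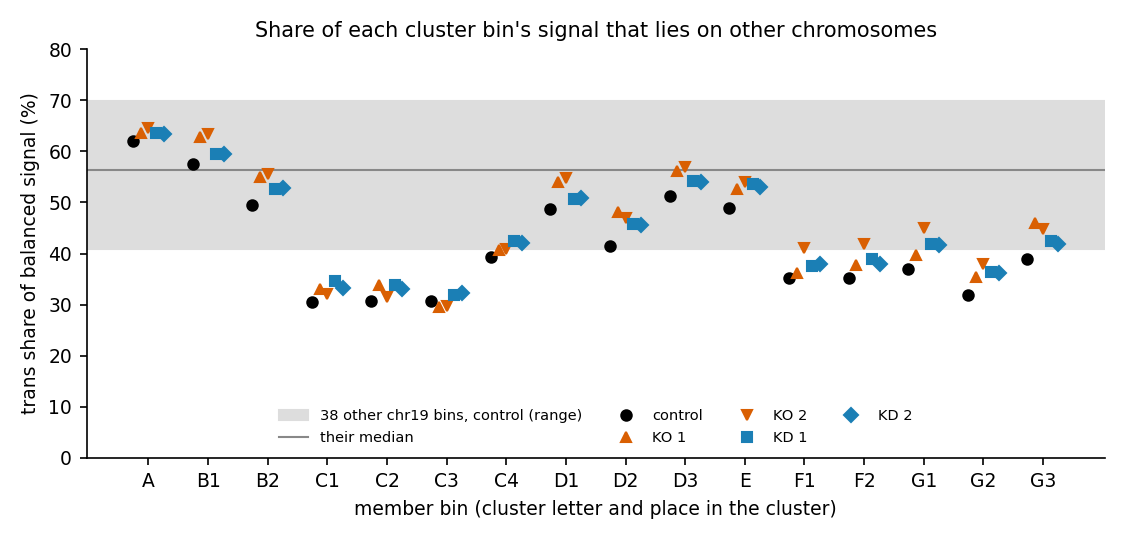
Trans share of balanced signal in percent (y axis) of each of the 16 cluster bins (x axis, cluster letter and place in the cluster), 1 point for each of the 5 libraries. The grey band is the range of the other 38 chr19 bins in the control, with their median of 56.3% as a line, and the bins of clusters C, F and G lie below the band in the control.

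Trans shares were compared between groups as log2 of trans over cis signal. In KO, 15 of the 16 bins lay above the control in both libraries, against 1013 of all 2641 bins (38.4%) and 32 of the other 38 chr19 bins. Bin 22 was the exception, with -1.18 in the control and -1.25 and -1.25 in KO. In KD all 16 bins lay above the control in both libraries, as did 2624 of all 2641 bins (99.4%), so this direction was shared by nearly all bins of the genome. The median difference from the control was 0.29 over the 16 bins in KO, against 0.25 over the other chr19 bins and 0.04 over all bins. In KD it was 0.19 over the 16 bins, 0.14 over the other chr19 bins and 0.16 over all bins. In recovered contacts 12 of the 16 bins lay above the control in both KO libraries, against 2 of the other 38 chr19 bins and 1257 of all 2641 bins (47.6%), and 16 of 16 in KD against 2610 of 2641 (98.8%). The yield of 11 of the 16 bins was above the control in both KO libraries. Higher yield in KO was not limited to cluster bins. Its median over the other 38 chr19 bins was 0.80 in the control and 1.19 and 1.13 in KO. Over the 16 bins the median was 0.76 in the control and 1.06 and 1.01 in KO. The part of yield in these values was not tested. Bins 20 to 23 of cluster C went the other way, each with a lower yield in KO replicates 1 and 2 than in the control, while the trans shares of bins 20, 21 and 23 were higher.

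With limma no bin of the genome passed an adjusted p of 0.05 for the trans share in any comparison (0%). At an unadjusted p under 0.05 were 8 of the 16 bins for KO against control, where 6.66% of all 2641 bins were, 8 of 16 for KD against control, where 20.9% were, and 6 of 16 for KO against KD, where 31.8% were. For KO against control the smallest p values belonged to bins 58, 11 and 12. Bin 58 had -0.65 in the control, -0.23 and -0.30 in KO, and -0.44 and -0.48 in KD, with a difference of 0.39 between KO and control (SE 0.06, limma adjusted p = 0.667). The differences of bins 11 and 12 were 0.34 (SE 0.05) and 0.34 (SE 0.06), with the same limma adjusted p. For KD against control bins 44, 37 and 12 had the smallest p, with differences of 0.25, 0.25 and 0.19 (limma adjusted p = 0.215 each). For KO against KD bins 11, 36 and 58 had the smallest p, with differences of 0.23, 0.21 and 0.19 (limma adjusted p = 0.0909, 0.0912 and 0.103). The KO libraries were close to each other in bins 36, 37 and 38, with an SD of 0.03, 0.05 and 0.03, and farther apart in bins 52, 53 and 56, with an SD of 0.21, 0.18 and 0.22.

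Contacts of the clusters with zinc finger gene clusters of other chromosomes were taken from 16 bins on 10 chromosomes, named from general knowledge of where such genes lie. Expected signal was the product of the trans totals of both bins. Summed over the 256 bin pairs, log2 of observed over expected was 1.58 in the control, 1.16 and 1.45 in KO, and 1.51 and 1.57 in KD, so the control had 2.99 times the expected signal. The other 38 chr19 bins had 0.71 in the control with the same 16 bins, 0.58 and 0.68 in KO, and 0.76 and 0.74 in KD. With all remaining trans bins, the cluster bins had 0.02 in the control. The signal rested on 1580 contacts in the control, 1089 and 1152 in KO, and 1790 and 2885 in KD. All 16 cluster bins were above 0 in all 5 libraries, from 0.98 for bin 20 to 2.13 for bin 57 in the control. Of the other 38 chr19 bins 37 were above 0 in the control as well, and bins 54 and 50, at 1.57 and 1.22, exceeded several cluster bins. Bin 23 of cluster C split most between the KO libraries, with 1.86 in the control, 0.05 and 1.61 in KO, and 1.47 and 1.20 in KD, on 46 contacts in the control.

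The partners were unequal. The bin at the end of the long arm of chromosome 12 (chr12:133000001-134000000) had 2.98 in the control, 2.18 and 2.65 in KO, and 2.88 and 3.06 in KD. The bin at the end of the short arm of chromosome 4 (chr4:1-1000000) had 2.73 in the control, 1.95 and 2.34 in KO, and 2.74 and 2.85 in KD. In both, the KO libraries lay below the control and both KD libraries. The other 38 chr19 bins had the same order, with 1.26 in the control, 0.83 and 1.14 in KO, and 1.39 and 1.40 in KD for the bin of chromosome 12. For the bin of chromosome 4 they had 1.41 in the control, 1.06 and 1.20 in KO, and 1.44 and 1.43 in KD. The bin chr7:64000001-65000000 followed with 2.21 in the control, 1.64 and 2.12 in KO, and 2.05 and 2.09 in KD. With it the other chr19 bins had 0.62 in the control. The bin chr5:178000001-179000000 went the other way, with 1.79 in the control, 2.18 and 1.95 in KO, and 1.38 and 1.66 in KD. Of the 16 partner bins, 12 were above 0 with cluster bins in all 5 libraries. The lowest was chr7:148000001-149000000, with -0.55 in the control, 0.40 and -0.33 in KO, and -0.05 and -0.22 in KD, and chr3:40000001-41000000 had 0.07 in the control. Of the 16, 11 had more signal with cluster bins than with other chr19 bins in all 5 libraries. The bins chr16:3000001-4000000 and chr16:30000001-31000000 were among those that did not, with 1.61 and 0.97 for cluster bins and 1.63 and 1.28 for other bins in the control. Neither the 12 nor the 11 is set against the share over all 2587 trans bins, so they describe the listed bins only. When all 2587 trans bins were ranked by their signal with cluster bins in the control, after leaving out bin pairs at 10 or more times expectation in any library, the bins at the ends of chromosomes 12 and 4 held the 2 highest ranks. Among the 20 highest, 5 were listed zinc finger bins and 10 were the first 10 bins of chromosome 3, next to the strong contact of bin 11. The lowest listed bin had rank 2035.

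**Figure D4:**
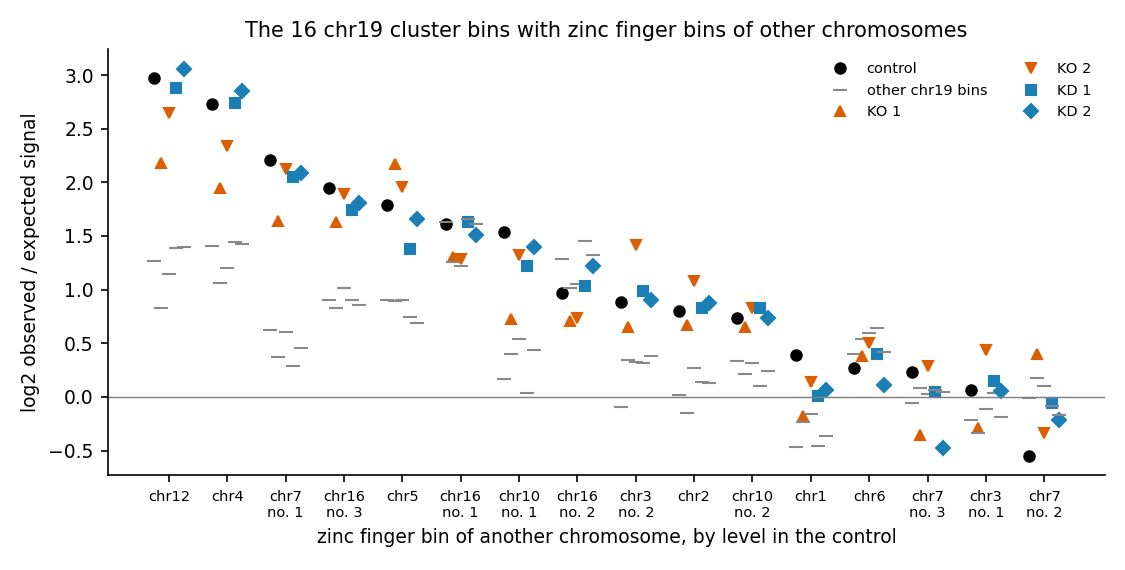
Log2 of observed over expected signal (y axis) of the 16 chr19 cluster bins together with each of 16 zinc finger bins of other chromosomes (x axis, ordered by the control), 1 coloured point for each library, with the same value for the other 38 chr19 bins as grey bars. The bins of chromosomes 12 and 4 are highest, at 1.95 to 3.06, and their KO points lie below the control and KD points.

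In the sums over all 16 partner bins, KO was lower than the control by 0.27 over cluster bins alone, with an SD of 0.21 between the KO libraries, and by 0.19 after subtracting the other chr19 bins. Without KO replicate 1 the latter was -0.10, and without KO replicate 2 it was -0.28. Without bin pairs at 10 or more times expectation it was -0.083, and without bins 9 and 11 it was -0.23. Over cluster bins alone it was -0.13 without KO replicate 1 and -0.42 without KO replicate 2. By the median over bin pairs above 0 the order of the groups turned for cluster bins alone, with -0.088 for KO and -0.21 for KD against control. This median leaves out pairs at 0, which were unequal between libraries. Of all trans bin pairs, 11.2% were at 0 in the control, 23.2% and 23.5% in KO, and 8.17% and 3.68% in KD. The part of these left-out pairs in the turned order was not tested. KD was lower than the control by 0.04 over cluster bins alone and by 0.08 after the subtraction, and by the median the latter was -0.23. Of the 16 partner bins, 8 were below the control in both KO libraries, where 27.5% of all 2587 trans bins were, and 6 in both KD libraries, where 35.6% were. No test of these sums was run, since the smallest exact p is 0.333.

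By whole chromosomes, the cluster bins had the most signal above expectation with chromosomes 22, 3 and 13 in the control and the least with chromosomes 10, 2 and 5. Chromosome 22 had a mean log2 of observed over expected of 0.66 in the control, 0.37 and 0.46 in KO, and 0.65 and 0.63 in KD. The other chr19 bins had more with it, 0.85 in the control. Chromosome 3 had 0.43 in the control, 0.33 and 0.18 in KO, and 0.36 and 0.35 in KD, but -0.02 in the control once bin pairs at 10 or more times expectation were left out. Chromosome 13 had 0.42 in the control, with lower values in both KO libraries and higher values in both KD libraries. The lowest values in the control were -0.29 for chromosome 10, -0.26 for chromosome 2 and -0.24 for chromosome 5, close to those of the other chr19 bins (-0.34, -0.29 and -0.33).

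Contacts of single bins with whole chromosomes gave the only calls. With limma over 55461 pairs of a bin and a chromosome, none passed for KO or KD against control (0%; 4111 and 1953 at an unadjusted p under 0.05), and 71 passed for KO against KD (0.128%). Of the 71, 69 were lower in KO than in KD. Bins of chromosome 10 with chromosome 1 gave 32 of the 71, and bins of chromosome 1 with chromosome 10 gave 30. Of the 336 pairs of a cluster bin with a chromosome, 3 passed, each with chromosome 13. Each was lower in KO than in KD, a direction shared by nearly all calls. Bin 57 had 0.63 in the control, 0.36 and 0.46 in KO, and 1.32 and 1.23 in KD (difference -0.87, SE 0.08, limma adjusted p = 0.0472). Bin 56 had 0.48 in the control, 0.19 and 0.31 in KO, and 1.10 and 1.13 in KD (difference -0.86, SE 0.08, limma adjusted p = 0.0472). Bin 52 had 0.69 in the control, 0.15 and 0.29 in KO, and 1.06 and 1.06 in KD (difference -0.84, SE 0.08, limma adjusted p = 0.0480). In all 3 the control lay between the groups. None of the 3 was called when either KD library was left out, and 0 pairs of any bin then passed.

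The other cluster bins of the long arm also had lower values in KO than in KD with chromosome 13, without passing. Bin 53 had 0.48 in the control, 0.25 and 0.27 in KO, and 0.94 and 0.90 in KD (limma adjusted p = 0.0561), and bin 37 had 1.61 in the control, 1.32 and 0.95 in KO, and 1.82 and 1.80 in KD (limma adjusted p = 0.179). Both KO libraries lay below both KD libraries in 11 of the 16 cluster bins, in 17 of the other 38 chr19 bins, and in 382 of 2546 bins of all other chromosomes (15.0%). This followed the arm: on the long arm it held for all 9 cluster bins and 17 of 22 other bins, and on the short arm for 2 of 7 cluster bins and 0 of 16 other bins. The median difference between KO and KD was -0.66 over cluster bins and -0.22 over other bins of the long arm, and -0.01 and 0.16 on the short arm. Bins 51 and 54, on either side of cluster F, had -0.59 and -0.54 (limma adjusted p = 0.0890 and 0.140). Along chromosome 13 the difference was largest between 50 and 90 Mb, of 4 windows whose edges were set after the values were seen. There bins 52, 56 and 57 had 1.05 in the control, 0.47 and 0.35 in KO, and 1.87 and 1.84 in KD, on 825 contacts in the control, 224 and 303 in KO, and 1912 and 2791 in KD. In the first 20 used bins of the chromosome, before 40 Mb, they had -0.24 in the control, -0.19 and 0.19 in KO, and -0.41 and -0.39 in KD.

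The yield of chromosome 13 was also lower in both KO libraries than in both KD libraries. Its median bin had 1.47 times the recovered contacts of the median autosomal bin in the control, 0.955 and 1.15 times in KO, and 1.50 and 1.47 times in KD. The part of this yield, and of the strong contact of bin 40 with chromosome 13, in the called differences was not tested. Of all chr19 bins, bins 28 and 31, which are not cluster bins, had the most signal with chromosome 13 in the control, 2.26 and 2.22.

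**Figure D5:**
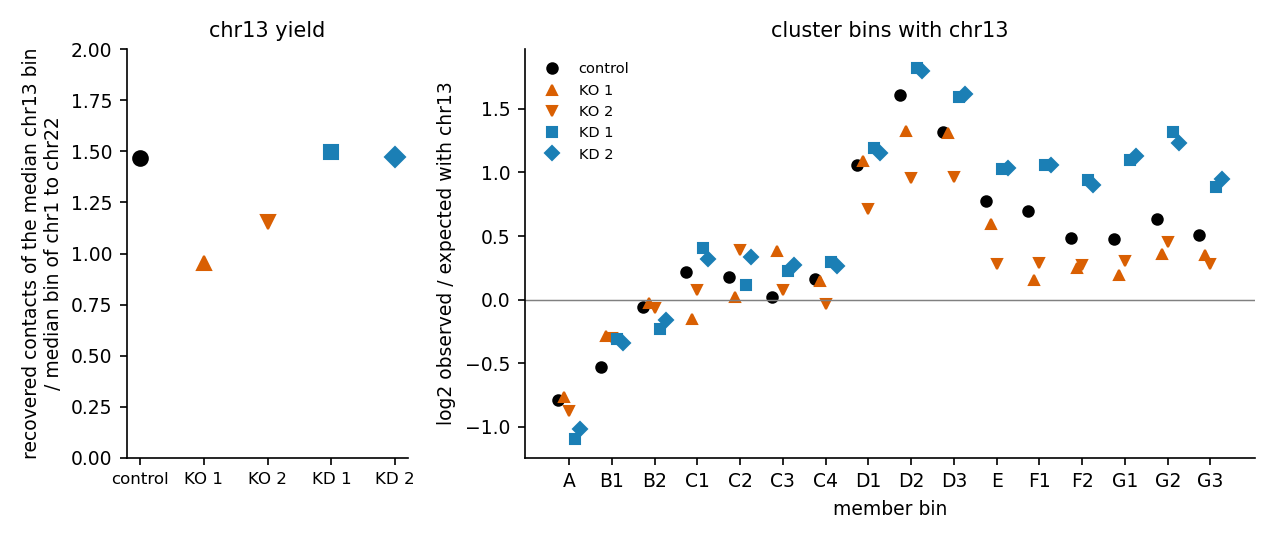
Left, recovered contacts of the median chr13 bin relative to the median bin of chromosomes 1 to 22 in each library. Right, log2 of observed over expected signal of each of the 16 cluster bins (x axis, cluster letter and place in the cluster) with chromosome 13, 1 point for each library, where bins F1, G1 and G2 (bins 52, 56 and 57) are those called lower in KO than in KD.

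The smallest p for KO against control in the same family belonged to bin 58 with chromosome 21, which had 0.51 in the control, -0.02 and -0.10 in KO, and 0.37 and 0.33 in KD (difference -0.57, SE 0.09, limma adjusted p = 0.267). Bin 9 with chromosome 22 and bin 52 with chromosome 13 followed, with differences of -0.49 and -0.47 (limma adjusted p = 0.344 and 0.448). For KD against control the smallest p belonged to bins 56, 57 and 53 with chromosome 13, at 0.64, 0.64 and 0.44 (limma adjusted p = 1.00 each).

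In the compartment eigenvector, the leading pattern of each chromosome's contact map, most cluster bins fell on one side. Its sign was set so that bins with a higher trans share in the control are positive. The median over cluster bins was -1.21 in the control, -1.15 and -1.61 in KO, and -1.10 and -1.08 in KD, against 0.78, 0.70, 0.20, 0.73 and 0.79 for the other 38 bins. Of these, 12 were also negative in all 5 libraries, among them bin 28 at -1.48 in the control, and the 22 other bins of the long arm had a median of -0.03 there. Without bins 9 and 11 the cluster median was -1.25 in the control. Bin 11 was the exception in the control at 0.29, with 0.42 and -0.32 in KO and 0.47 and 0.36 in KD. Bin 9 had -0.11 in the control, -1.03 and 0.50 in KO, and 0.09 and 0.03 in KD. KO replicate 2 was lower than KO replicate 1 in all cluster bins other than bin 9, and its eigenvector of chr19 had a correlation of 0.951 with the control, the lowest of the 4 other libraries (0.983 or above in the rest). No bin of the genome passed with limma in any comparison (0%), and 0 of the 16 cluster bins had an unadjusted p under 0.05. Of all 2641 bins, between 43 (KD against control) and 290 (KO against KD) had such a p, depending on the comparison. When bins with under 0.5 of the median total were left out, 10 cluster bins remained and the direction turned. The median difference over them was then 0.35 for KO against control, where 7 had an unadjusted p under 0.05, and 0.30 for KO against KD, where 8 had, against -0.16 and -0.24 over all 16. No eigenvector direction in KO is therefore given for the clusters. Bins 52, 21 and 57 had the smallest p for KO against control, with differences of -0.25, -0.23 and -0.16 (limma adjusted p = 0.882 each). For KD against control it was bins 53, 12 and 57, at 0.18, 0.31 and 0.08 (limma adjusted p = 0.998 each), and for KO against KD bins 53, 52 and 57, at -0.37, -0.32 and -0.24 (limma adjusted p = 0.545, 0.580 and 0.592). The other 38 chr19 bins had a median difference of -0.18 for KO against control. With the eigenvector centred per chromosome, bins 52, 21 and 57 had -0.09, -0.07 and 0.0003 for KO against control. The median over the 16 was then 0.002.

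The 5 other chr19 bins whose profile over the 21 other autosomes in the control was most like the mean profile of the cluster bins were bins 19, 43, 51, 54 and 35, with Pearson correlations of 0.827, 0.814, 0.810, 0.781 and 0.769. All 5 adjoin a cluster, bin 19 before C, bin 35 before D, bin 43 before E, and bins 51 and 54 on either side of F. These profiles share a library and the strong contacts of chr19, so the correlations are descriptions. Of the cluster bins themselves, bin 9 had the lowest correlation with the mean that includes it, 0.424.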

How the data were processed

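In situ Hi-C of 5 libraries was deposited as 1 symmetric matrix of contact signal per library in 1 Mb bins. Bowtie2 and the hg19 build are named in the submitters' processing notes. Its version, the filters and the balancing program are not stated there. The deposited signal was balanced by the authors, as read from the values: 94.9% to 96.5% of row sums lay within 0.1% of the library's median. Whole contacts were recovered by dividing out each bin's factor, and 98.0% to 99.1% of nonzero values came out whole within 0.05. A factor too small by a whole divisor cannot be seen in this check. Of 2667 measured autosomal bins, 26 with under 0.25 of the median contacts between bins in the control were left out.

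Trans share was log2 of (trans + 0.5) over (cis + 0.5) signal without the same bin. Cis pairs (2 to 50 Mb, signal in all libraries) were set against the mean of their chromosome at that distance where 3 or more pairs gave it. Pairs at 10 or more times expectation in any library were counted as strong contacts (114 with cluster bins). All 5 libraries entered 1 limma fit (limma 3.58.1, R 4.3.3) with 2 residual degrees of freedom and Benjamini-Hochberg adjustment over all features of a family, at 0.05. The control's spread is assumed to be that of KO and KD. The fits were tested on simulated data, with the same spread for all features of a group. For KO against control, 100 features per family were changed by a log2 of 1 and 100 by a log2 of 2. The fits called 86 and 100 of them for the trans share and 97 and 100 for a bin with a chromosome. For cis pairs they called 0 and 0, and for the eigenvector 11 and 70. The absence of calls in cis pairs therefore does not show absence of change. Other steps used Python 3.11.15 and scipy 1.17.1, and intervals are exact binomial and cover counting error only. The members, the lists and the alternatives were chosen with earlier results of these data known. Bins were named by this rule: all 16 cluster bins, every member feature past the threshold or else the 3 with the smallest p, the 3 highest and 3 lowest cluster pairs and chromosomes, and other chr19 bins that adjoin a cluster or are the 2 highest or lowest of a measure. Bin 40 and the windows of chromosome 13 were added after their values were seen.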

Additional observations from a re-analysis of the deposited data

How the results depend on the processing

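Settings for bins 9 and 11, for 1 arm, for the centred eigenvector, for the crossed block and all settings of the trans share difference were added after seeing the data. No cis bin pair was called in any contrast under any setting run. KO and KD replicate numbers did not pair the libraries: differences between numbers 1 and 2 correlated at 0.02 (trans share), 0.00 (bin with chromosome), 0.01 (cis pairs) and -0.11 (eigenvector). With the replicate number as a block, calls of a bin with a chromosome for KO against KD went from 71 to 0. The block changed no other count, and the crossed pairing gave 0 calls for the eigenvector. Leaving out 1 library in turn gave 0 to 1875 trans share calls for KO against control, 0 to 2565 for KD against control and 0 to 2336 for KO against KD. For a bin with a chromosome it gave 0 to 671 (KO against control) and 0 to 1806 (KO against KD), and for the eigenvector 0 to 921 and 0 to 1211. The high counts came without a KO library, when only the KD pair gives the spread. Eigenvectors of recovered contacts gave 965 calls (KO against control) and 1294 calls (KO against KD), but on chr19 they correlated with the control at only 0.30 and 0.01 in KO and 0.94 and 0.44 in KD, so they do not hold 1 pattern there. The excess of pairs between clusters over mixed pairs in the control was 1.43 in recovered contacts, 1.43 when summed, 1.73 against bins that touch no cluster, 1.93 without bins 9 and 11 and 1.74 across arms. In recovered contacts its difference was -0.42 (KO against control) and -0.32 (KO against KD), and in the long arm 0.056 for KD against control. Leaving out 1 library, it was -0.25 to -0.00 for KO against control, -0.14 to -0.07 for KD against control and -0.15 to 0.10 for KO against KD. The excess of cluster bins over other bins with zinc finger bins elsewhere was 0.56 in the control without strong contacts and 0.99 against bins that touch no cluster. Without strong contacts KO less control was -0.083 and KO less KD was -0.0061. By the median over pairs above 0 this excess differed by -0.23 for KD against control and 0.021 for KO against KD. The median trans share of cluster bins less the median of other chr19 bins, on the log2 scale, was -1.01 in the control. KO, KD and KO against KD differed by 0.04, 0.07 and -0.03. In recovered contacts these were -0.88, 0.17, 0.0039 and 0.16. With bins from 0.5 of the median total they were -0.96, 0.11, 0.047 and 0.066, and without neighbouring bins -1.36 in the control, 0.17 for KO and 0.18 for KD. The cause was not tested for these changes. Few contacts per pair limit the cis pairs.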
